A study of Mus musculus with 24 samples.

Results

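The 7 genes described here encode the MHC class II antigen presentation machinery of the mouse. They were chosen by symbol, as H2-Aa, H2-Ab1, H2-Eb1, H2-DMa, H2-DMb1, Cd74 and Ciita. All 7 were found among the 14912 genes measured, and all 7 passed the filter of a mean of at least 0.1 FPKM (fragments counted for a gene, scaled for its transcript length and the size of the library), as did 14026 genes in all. The hypertensive-LVH group held the left ventricles of 12 wild-type mice infused with ANG II, the pressor peptide angiotensin II, at 1500 ng/kg/min over 7 days, and the control group those of 12 wild-type mice infused with saline. Per the study's methods, all mice were male C57BL/6J, every heart had been flushed with saline to clear the blood, and the libraries were made from oligo(dT)-selected RNA of the whole left ventricle.

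MHC class II molecules are pairs of an alpha and a beta chain that display peptides from the endosome to CD4+ T cells. Dendritic cells, B cells and many macrophages carry them constantly, and interferon-γ can induce them in other cells, including endothelium. New molecules bind the invariant chain, which is cut down by endosomal proteases until H2-DM exchanges its last fragment for a peptide, and the whole set of genes is switched on by the transactivator CIITA. CIITA does not bind DNA itself but is recruited to an upstream X box, bound by the RFX complex and CREB, and a Y box, an inverted CCAAT motif bound by NF-Y.

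Of the members, H2-DMa, H2-DMb1, H2-Ab1, H2-Aa and H2-Eb1 lie in this order on mouse chromosome 17 between positions 34119541 and 34316674 of GRCm38, and H2-Aa alone among them is on the minus strand. Ciita lies on chromosome 16 at 10480059 to 10528418. RefSeq promoter windows of GRCm38.p6, from 250 bases before to 50 bases after a start, were matched for 4 members (H2-Aa, H2-Eb1, H2-DMa and H2-DMb1) and for 4 further class II genes, but not for H2-Ab1, Cd74 and Ciita. The motif AGNAAC, the core of many X boxes, was followed on the strand of the gene by ATTGG, the core of the Y box, within 15 to 50 bases in the windows of H2-Eb1, H2-DMb1, H2-Oa, H2-Ob and H2-Eb2. On either strand this pair was present in 1.89% of 32851 promoter windows, whereas 48.1% held AGNAAC and 37.4% held CCAAT, the reverse complement of the Y motif. H2-Aa did not hold AGNAAC, and a shorter pair, GNAAC before the same Y motif, which it holds and which was searched after its sequence had been seen, was present in 5.55% of windows. The bases just before the start are shown for H2-Aa and H2-Eb1, which are among the members, and for H2-Ob, a chain gene outside the members that was not called, because these stretches hold the motif pair outside annotated exons. Capitals mark the X motif and the ATTGG of the Y motif, and sequences run 5′ to 3′ on the strand of the gene.
H2-Aa, chr17:34287824-34287953, minus strand: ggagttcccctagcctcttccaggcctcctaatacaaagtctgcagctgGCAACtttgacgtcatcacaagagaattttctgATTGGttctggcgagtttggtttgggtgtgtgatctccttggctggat
H2-Eb1, chr17:34305737-34305866, plus strand: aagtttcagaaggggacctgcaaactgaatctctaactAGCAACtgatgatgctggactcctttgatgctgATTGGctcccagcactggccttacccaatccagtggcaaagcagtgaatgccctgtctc
H2-Ob, chr17:34238775-34238902, plus strand: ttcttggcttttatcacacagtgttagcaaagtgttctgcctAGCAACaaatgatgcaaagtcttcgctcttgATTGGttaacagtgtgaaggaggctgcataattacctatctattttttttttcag

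The motifs were spaced alike in these stretches. From the first base of AGNAAC to the first base of ATTGG the distance was 33 bases in H2-Eb1, 34 in H2-DMb1 and 31 in H2-Ob, and in H2-Aa it was 34 when counted from the base before GNAAC. The Y motif began 48 bases before the start of H2-Aa and 59 bases before that of H2-Eb1. Neither window of H2-DMa held the pair. A match describes these letters only and does not show that a factor binds there.

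The values of the table were not plain FPKM. They had been adjusted in 4 sets of samples, numbered 1 to 3, 4 to 6, 7 to 9 and 10 to 12 in either group. The sets were seen from 282 to 600 genes with tied values in pairs of samples within a set, and at most 82 between sets. Ties do not show scaling, which was worked out for the 7 members from the spacing of their values, as given below. Of all values 0.766% were negative, but 0 of those of the 7 members. Controls summed to between 482319 and 567727 FPKM and ANG II samples to between 460715 and 515185 FPKM, and the depth of the libraries is unknown. Samples 4 to 6 stood apart. In that set 26.5% of the genes tested were called higher and 5.45% lower in the hypertensive-LVH group at an adjusted P under 0.05, against at most 4.03% and 3.91% in each of the other sets, so results are given with and without it. The offsets of the sets are unknown, so low controls and high ANG II samples cannot be told apart there.

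Cd74, the gene of the invariant chain, lies on chromosome 18 and was the most abundant member, with a mean of 196 FPKM over all samples, above 97.5% of the genes in the table. The beta chain gene H2-Ab1 followed at 81.2 FPKM, the alpha chain gene H2-Aa at 72.9 FPKM and the beta chain gene H2-Eb1 at 54.6 FPKM. The chains of H2-DM were lower, at 7.07 FPKM for H2-DMb1 and 5.08 FPKM for H2-DMa, and Ciita was the lowest at 1.00 FPKM. Cd74 exceeded H2-Ab1, H2-Eb1 exceeded H2-DMb1 and H2-DMa exceeded Ciita in all 24 samples. The neighbours in between were closer, since H2-Ab1 exceeded H2-Aa in 21 samples, H2-Aa exceeded H2-Eb1 in 23 and H2-DMb1 exceeded H2-DMa in 22. FPKM is scaled for transcript length, but because the values had also been adjusted by set, these orders describe the deposited values only.

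All 7 members had a higher mean in the hypertensive-LVH group, by 0.23 to 0.51 on the log2(FPKM + 1) scale, and the groups overlapped for each of them, while 0.271% of all genes were higher with no overlap. By limma, with Benjamini-Hochberg adjustment over all 14026 genes, only H2-DMa was called higher at an adjusted P under 0.05, so 1 of 7 members was called, while 20.9% of all genes tested were called higher. At an unadjusted P under 0.05, 7 of 7 members were higher, against 29.0% of all genes. No member met the DEG criteria of the study, an adjusted P under 0.05 with an absolute log2 fold change over 0.5, which 4.52% of all genes met in the direction of an increase. Over all genes the median change was 0.05 on the log2 scale. In whole tissue, more cells that express a gene and more of its RNA per cell cannot be told apart.

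**Figure D1:**
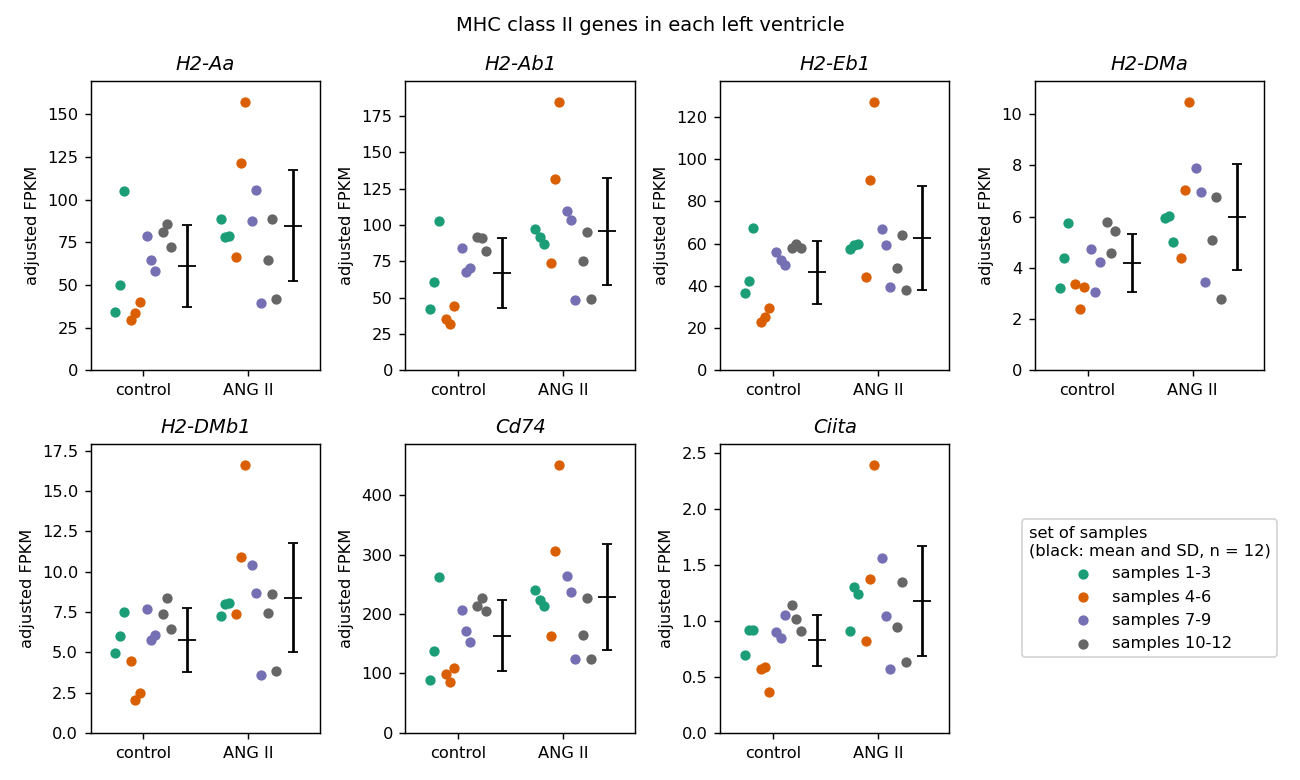
Adjusted FPKM (y axis, linear, 1 scale per gene) of the 7 MHC class II genes in each left ventricle of the control and ANG II (hypertensive-LVH) groups, coloured by set of samples, with the mean and SD of each group in black (n = 12). Control samples 4 to 6 (orange) lie in the lower part of every panel, ANG II sample 6 is the highest sample in each, and the groups overlap for all 7 genes.

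Among the chains, H2-Ab1 ranged from 31.7 to 102 FPKM in the control group, with a median of 69.1 FPKM. After ANG II it ranged from 48.2 to 184 FPKM around a median of 93.1 FPKM. The groups overlapped widely, with 4 ANG II samples above the highest control and 4 controls below the lowest ANG II sample. Its log2 fold change was 0.51 ± 0.21 (SE), with a 95% interval of 0.08 to 0.94 and an adjusted P of 0.0637 in limma. H2-Aa ranged from 29.5 to 105 FPKM around a median of 61.3 FPKM in the controls, and from 39.6 to 157 FPKM around a median of 83.0 FPKM after ANG II. The log2 fold change of H2-Aa was 0.48 ± 0.22, with an adjusted P of 0.0963. This gene also overlapped between groups, with control sample 3, at 105 FPKM, above 9 of the 12 ANG II samples. H2-Eb1 ranged from 22.9 to 67.2 FPKM (median 51.2) in the control group and from 38.1 to 127 FPKM (median 59.2) in the hypertensive-LVH group. The increase of H2-Eb1 was 0.42 ± 0.19 on the log2 scale, with an adjusted P of 0.0862, and was not called. For H2-Eb1 only ANG II samples 5 and 6 exceeded the highest control.

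The invariant chain gene Cd74 behaved like the chains it accompanies. It ranged from 86.4 to 263 FPKM (median 162) in the control group and from 124 to 450 FPKM (median 225) in the hypertensive-LVH group. Its log2 fold change was 0.48 ± 0.21, with a 95% interval of 0.06 to 0.91 and an adjusted P of 0.0737. The groups overlapped, and 3 ANG II samples lay above the highest control.

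H2-DMa, the alpha chain of the peptide exchanger, ranged from 2.38 to 5.78 FPKM (median 4.30) in the control group and from 2.76 to 10.5 FPKM (median 5.98) in the hypertensive-LVH group. With 7 ANG II samples above the highest control it had more such samples than any other member, although 1 control alone lay below the lowest ANG II sample. Its log2 fold change was 0.40 ± 0.15, with a 95% interval of 0.10 to 0.71 and an adjusted P of 0.0398. The call was lost in 12 of 24 limma fits that left out 1 mouse, with an adjusted P of at most 0.0756. It was also lost with quantile normalization (adjusted P = 0.0732) and with the set as a term in the model (adjusted P = 0.0604). With the replicate number as a term instead, the adjusted P was 0.105. The beta chain gene H2-DMb1 ranged from 2.05 to 8.34 FPKM (median 6.03) in the controls and from 3.58 to 16.6 FPKM (median 8.03) after ANG II. Its log2 fold change was 0.46 ± 0.20, with an adjusted P of 0.0728. The groups overlapped, with 5 ANG II samples above the highest control. H2-DMb1 shared 26.6% of the 50-base words of its transcript with its neighbour H2-DMb2, so reads may have been divided between these genes, whereas H2-Eb1 shared 0% with H2-Eb2.

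Ciita, the transactivator, ranged from 0.368 to 1.14 FPKM (median 0.905) in the control group and from 0.573 to 2.39 FPKM (median 1.14) in the hypertensive-LVH group. For this gene the log2 fold change was 0.23 ± 0.10, with a 95% interval of 0.03 to 0.44 and an adjusted P of 0.0685. At this low level the added 1 FPKM makes the log2 value smaller than the ratio of the FPKM means. The groups overlapped, with 6 ANG II samples above the highest control.

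The size of the difference varied between the sets of samples. In samples 4 to 6 all 7 members were called higher, where 26.5% of all genes were, with log2 fold changes from 0.70 for Ciita to 1.70 for H2-Ab1 and adjusted P from 2.9e-04 to 0.0112. In samples 1 to 3 the log2 fold changes of the members were 0.22 to 0.61, and in samples 7 to 9 they were 0.03 to 0.46. In samples 10 to 12 all 7 were negative, from -0.36 for Cd74 to -0.05 for Ciita. None of the 7 was called in these 3 sets, where 0.0927%, 4.03% and 1.14% of all genes were called higher and 0.121%, 3.91% and 2.20% lower. The difference between sets was itself tested as a group by set interaction in limma, which called H2-Eb1 (adjusted P = 0.0197), H2-Ab1 (adjusted P = 0.0384) and H2-DMb1 (adjusted P = 0.0398), against 7.49% of all genes. With median-ratio scaling the interaction was not called for H2-Ab1 (adjusted P = 0.0747) or H2-DMb1 (adjusted P = 0.0736), nor for H2-DMb1 with quantile normalization (adjusted P = 0.124). For H2-Aa, Cd74, Ciita and H2-DMa the adjusted P of the interaction was 0.0745, 0.0743, 0.184 and 0.235.

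**Figure D2:**
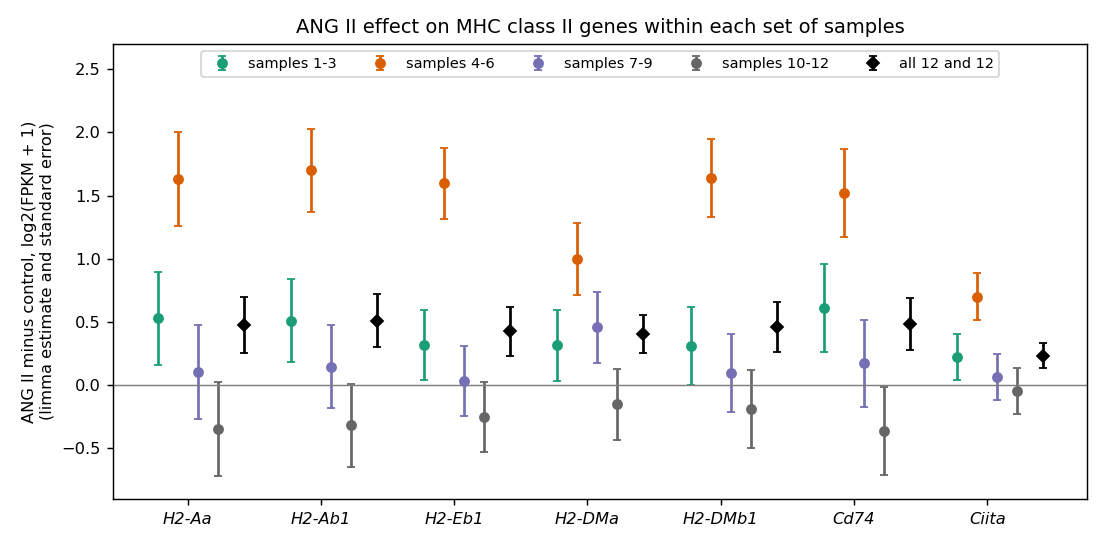
Difference between the ANG II and control groups on the log2(FPKM + 1) scale (y axis) for each MHC class II gene (x axis), as the limma estimate with its standard error, within each set of samples and over all 12 and 12 samples. Samples 4 to 6 give the largest estimate for each gene, from 0.70 to 1.70, and samples 10 to 12 the lowest, all below 0.

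The samples behind this pattern can be read from H2-Ab1. In samples 4 to 6 it was 35.5, 31.7 and 44.1 FPKM in the controls and 74.1, 131 and 184 FPKM after ANG II, so all 3 ANG II samples lay above all 3 controls. In samples 10 to 12 it was 91.5, 91.0 and 82.0 FPKM in the controls and 75.3, 94.8 and 49.0 FPKM after ANG II, so the groups overlapped. In samples 7 to 9 ANG II sample 9 was low, at 48.2 FPKM, beside 110 and 103 FPKM in samples 7 and 8 and 84.0, 67.8 and 70.3 FPKM in the controls. In samples 1 to 3 the controls varied most, at 42.3, 60.9 and 102 FPKM, and the ANG II samples lay close together at 97.4, 91.4 and 86.8 FPKM. The 4 lowest samples of all by their mean rank over the 7 members were control samples 1, 4, 5 and 6, and ANG II samples 9 and 12 came next. ANG II sample 6 was the highest for all 7 members. Because the offsets of the sets are unknown, this order across sets describes the deposited values only.

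Without samples 4 to 6 of both groups, the log2 fold changes were 0.09 for H2-Aa, 0.11 for H2-Ab1, 0.03 for H2-Eb1, 0.14 for Cd74, 0.21 for H2-DMa, 0.07 for H2-DMb1 and 0.08 for Ciita. None was then called by limma, with an adjusted P of 0.355 for H2-DMa and of 0.530 to 0.870 for the others, while 8.36% of all genes were called higher. Without samples 10 to 12, 7 of 7 were called, as were 15.8% of all genes in the direction of an increase, with log2 fold changes from 0.33 for Ciita to 0.79 for H2-Ab1. With the 3 ANG II and 3 control labels exchanged only within sets, in all 160000 relabelings, the exact two-sided permutation P on the log2 scale was 0.0279 for H2-DMa, 0.0421 for Ciita, 0.0469 for H2-Ab1, 0.0525 for H2-DMb1, 0.0562 for Cd74, 0.0632 for H2-Eb1 and 0.0746 for H2-Aa. These are 7 tests of genes that vary together, and their P values are not adjusted. The set adjustment had left a group term, a fixed ANG II minus control difference for each member, unscaled. The deposited values therefore depend on the group labels, and the labels are not strictly exchangeable in this test. Limma was fitted to the same deposited values, so its P values for the members carry this dependence too.

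The adjustment of the sets changed the size of the differences more than their direction. From the spacing of the values, which were in steps of 0.01 FPKM before the adjustment, the differences within each set were recovered for all 7 members. Around the unscaled group term, the adjustment had divided these genes by 0.994 to 1.10 in samples 1 to 3 and by 0.945 to 1.63 in samples 4 to 6. The divisors were 0.599 to 0.689 in samples 7 to 9 and 0.843 to 0.948 in samples 10 to 12. The term was 33.0 FPKM for H2-Aa, 42.6 FPKM for H2-Ab1 and 86.6 FPKM for Cd74. For every member but Cd74 it was larger than the mean difference over the sets before the adjustment. Before it, 7 of 7 members were higher after ANG II in each of the sets 1 to 3, 4 to 6 and 7 to 9, and in samples 10 to 12 Ciita alone was. The mean difference over the sets was 93.2 FPKM for Cd74, 36.9 FPKM for H2-Ab1, 31.4 FPKM for H2-Aa, 22.9 FPKM for H2-Eb1, 3.51 FPKM for H2-DMb1, 1.94 FPKM for H2-DMa and 0.431 FPKM for Ciita. The exact permutation P within sets on these values was 0.00168 for Ciita, 0.0093 for H2-DMa, 0.0105 for H2-Eb1, 0.0114 for H2-DMb1, 0.0147 for H2-Ab1, 0.0250 for Cd74 and 0.0419 for H2-Aa. Without samples 4 to 6 it was 0.0268 for Ciita, with a mean difference of 0.240 FPKM, and between 0.0895 and 0.423 for the other 6.

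**Figure D3:**
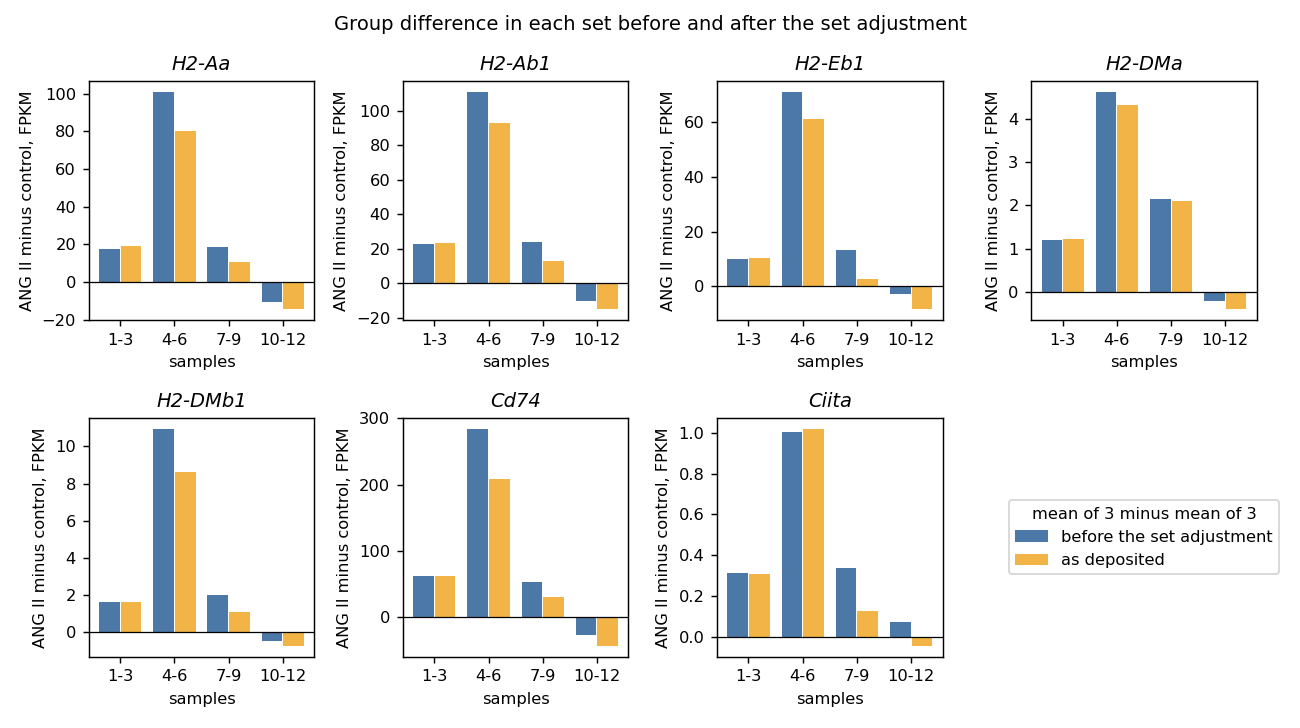
Mean of the 3 ANG II samples minus mean of the 3 control samples of each set (y axis, FPKM, 1 scale per gene) for the 7 MHC class II genes, before the set adjustment and as deposited. Samples 4 to 6 hold the largest bar in every panel, such as 284 FPKM for Cd74 before the adjustment, and samples 10 to 12 hold the smallest or a negative one.

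The members varied together across samples. H2-Ab1 spanned a range of 5.81 times between its lowest and highest sample, yet the ratio of Cd74 to H2-Ab1 stayed between 2.12 and 2.78 in the control group and between 2.19 and 2.58 in the hypertensive-LVH group. The ratio of H2-Ab1 to H2-Aa, the paired beta and alpha chains of the I-A molecule, was 0.941 to 1.24 in the control group and 0.978 to 1.26 in the hypertensive-LVH group. Over the 24 samples Pearson's r of the 21 pairs of members ranged from 0.828 to 0.987, and after the mean of each group in each set was removed it ranged from 0.665 to 0.982. Among H2-Aa, H2-Ab1, H2-Eb1 and Cd74 it was at least 0.951, or 0.909 after that removal. These values are descriptive, since the points share libraries, the set adjustment and the makeup of the tissue. By the same measure within groups and sets, genes outside the members that were most like the mean z-score of these 4 included Rps19 (r = 0.926), Dalrd3 (r = 0.899), Rpl13a (r = 0.898) and Usf1 (r = 0.891), of which Rps19 and Rpl13a encode ribosomal proteins.

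The other class II genes were scarce. H2-DMb2, a second beta chain gene for H2-DM, was called higher and was a DEG, with a log2 fold change of 0.52 ± 0.15 and an adjusted P of 0.0118. Its values ran from -0.10 to 1.16 FPKM in the control group and from 0.349 to 2.58 FPKM in the hypertensive-LVH group, and the groups overlapped. Leaving out samples 4 to 6, its log2 fold change was 0.28, with an adjusted P of 0.186. H2-Oa and H2-Ob, the chains of H2-DO, which restrains H2-DM and is known mainly from B cells, had log2 fold changes of 0.21 (adjusted P = 0.0920) and 0.08 (adjusted P = 0.388). The values of H2-Oa were at or below 0 in 4 samples, 2 of each group, and the negative ones entered the fit as 0. H2-Eb2 did not pass the filter on low values.

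Of 7 promoter factors, 1 was called higher and 1 lower, while 20.9% of all genes were higher and 12.6% lower. Rfxank, a subunit of the RFX complex, rose by 0.39 ± 0.07 (adjusted P = 1.74e-04) and was also called without samples 4 to 6. Its partners Rfx5 and Rfxap had log2 fold changes of 0.01 and -0.01, and neither was called. Among the NF-Y subunits Nfyc fell by 0.16 (adjusted P = 0.0178), whereas Nfya at 0.17 and Nfyb at 0.03 were not called, and the call of Nfyc was lost without samples 4 to 6 (adjusted P = 0.0872). Creb1, which encodes a factor of the X2 box, had a log2 fold change of 0.11 and was not called.

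Upstream of Ciita, 3 of 7 genes of the interferon-γ path were called higher and 1 lower, while 20.9% of all genes were higher and 12.6% lower. Among those called higher, Jak2, a kinase bound to the receptor, rose by 0.30 ± 0.10 (adjusted P = 0.0196) and Ifngr1, the ligand-binding receptor chain, by 0.29 ± 0.08 (adjusted P = 0.00471). Neither was called without samples 4 to 6. Ifngr2, the second receptor chain, fell by 0.38 ± 0.09 (adjusted P = 0.00191) and was called in both fits. Jak1 (0.03), Irf1 (-0.19), which encodes a factor of the inducible Ciita promoter, and the inhibitor gene Socs1 (0.12) were not called.

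Downstream, 7 of 9 genes for endosomal proteases and the thiol reductase were called higher, and 0 lower, while 20.9% of all genes were called higher. This count was 2 of 9 without samples 4 to 6, where 8.36% of all genes were called higher. Ifi30, the reductase that unfolds antigens, rose by 1.51 ± 0.33 (adjusted P = 0.00124), a larger estimate than that of any member. The median of these 9 genes was 0.05, 0.79, 0.73 and 0.16 in the successive sets, against 0.51, 1.63, 0.10 and -0.32 for the 3 chain genes. Thus in samples 7 to 9 the protease genes had a higher median than the chains in the deposited values. The difference was not tested, and the protease values before the set adjustment were not recovered. Of the costimulatory ligands that accompany class II on antigen-presenting cells, 0 of 5 were called, with a median log2 fold change of 0.08. Cd83, a stabiliser of surface class II, had a log2 fold change of 0.13 and was not called.

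Macrophage and most pan-leukocyte markers were higher after ANG II, where 20.9% of all genes tested were called higher. All 12 macrophage markers were called higher, with Cd68, a lysosomal glycoprotein, at 0.92, and their summed level ranged from 284 to 629 FPKM in the control group and from 390 to 1104 FPKM in the hypertensive-LVH group. Of 8 pan-leukocyte markers 6 were called higher, with Laptm5 at 0.86, and the summed level ranged from 87.3 to 169 FPKM and from 123 to 345 FPKM. Of 12 dendritic cell markers 7 were higher, with Irf8 at 0.73, and the summed level ranged from 15.4 to 24.2 FPKM and from 19.4 to 47.5 FPKM. No marker of these lists was at 0 in any sample. Of 6 monocyte markers 3 were higher, among them Plac8, which was at or below 0 in 3 controls and for which no fold is given, and the summed level ranged from -0.0892 to 8.89 FPKM and from 2.83 to 33.5 FPKM, with 4 markers at or below 0 in some sample. Without samples 4 to 6, 2 macrophage, 3 pan-leukocyte, 5 dendritic cell and 0 monocyte markers were called higher, while 8.36% of all genes were. The part of these cells in the levels of the members was not tested.

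By set, the pan-leukocyte list had a median log2 fold change of 0.21, 1.27, 0.89 and 0.20, and the macrophage list of 0.07, 1.31, 0.70 and 0.18. In the deposited values the chains and both of these lists were thus highest in samples 4 to 6. In samples 7 to 9 the chains, at 0.10, lay below both lists, and in samples 10 to 12 they were negative beside positive medians of both. Other leukocyte lists differed. The monocyte list was highest in samples 7 to 9, at 1.33 against 0.53 in samples 4 to 6. In samples 7 to 9 the dendritic cell list was at 0.25, the T cell list at -0.03 and the B cell list at -0.005. In samples 10 to 12 the B cell list was negative too, at -0.10. Before the set adjustment, the differences in samples 7 to 9 were 18.3 FPKM for H2-Aa, 24.1 FPKM for H2-Ab1 and 13.2 FPKM for H2-Eb1. As deposited they were 10.4, 13.0 and 2.55 FPKM. The marker lists were not recovered in this way. These differences between lists, and the part of the adjustment in them, were not tested.

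**Figure D4:**
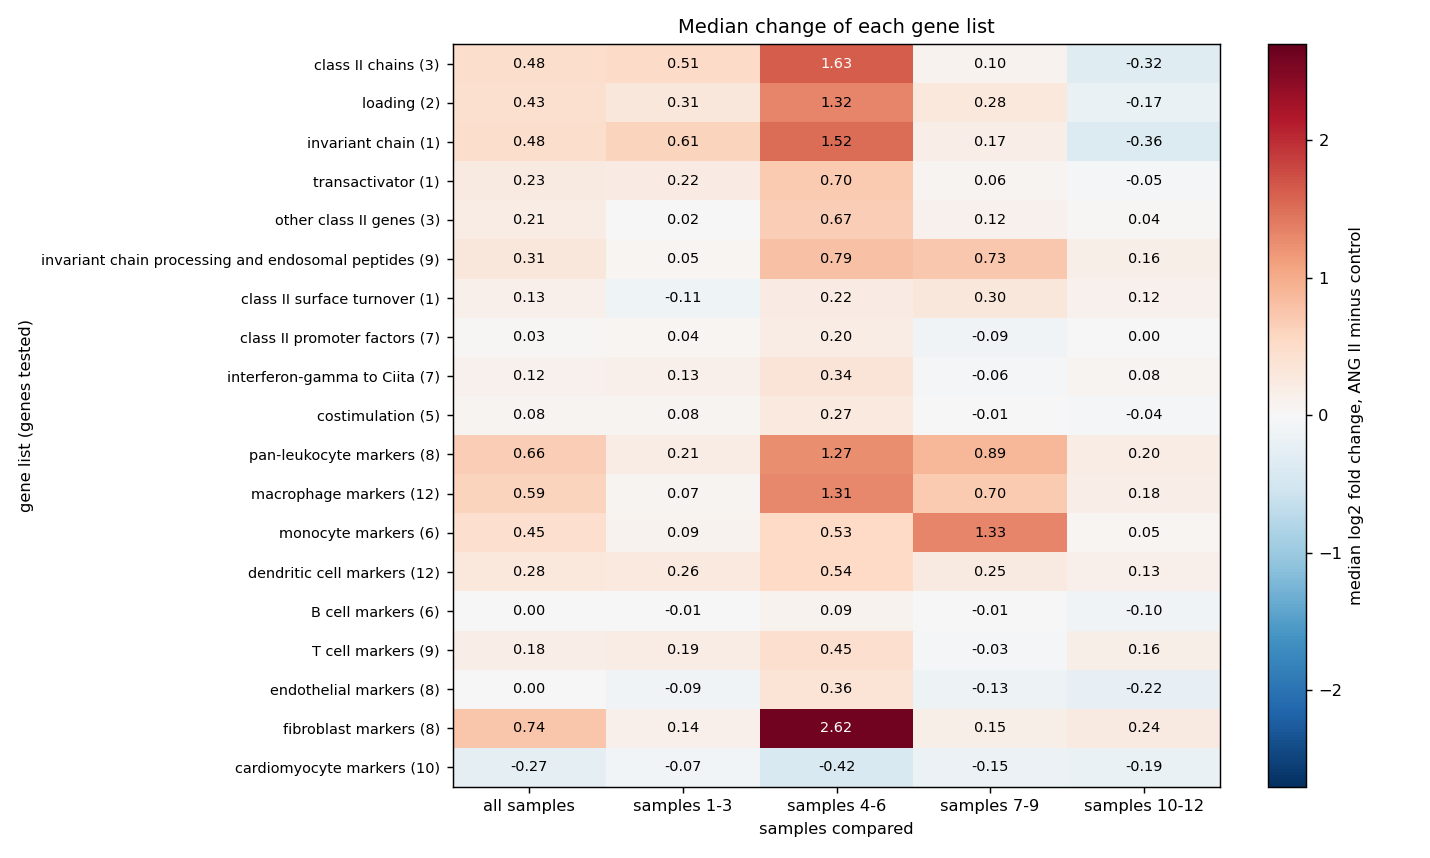
Median log2 fold change of the deposited values (ANG II minus control, colour and printed value) of each gene list (y axis, with the number of genes tested) over all samples and within each set (x axis). The class II chains follow the samples 4 to 6 column at 1.63 but drop to 0.10 and -0.32 in the last columns, where pan-leukocyte markers stand at 0.89 and 0.20, and the fibroblast value of 2.62 includes collagen genes at or below 0 in 3 control samples.

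Lymphocyte markers were low. Over all samples 20.9% of all genes tested were called higher and 12.6% lower, and the B cell and endothelial counts below lie near these shares. Of 6 B cell markers tested 1 was higher (Cd22, 0.14) and 1 lower (Cd79a, -0.25), with a summed level of 2.63 to 4.08 FPKM in the control group and 1.45 to 4.12 FPKM in the hypertensive-LVH group, and Ms4a1, another of the list, was at or below 0 in 1 sample. Of 9 T cell markers 3 were higher, with Lag3, which encodes a receptor for class II molecules, at 0.40 ± 0.09 (adjusted P = 0.00172), and the summed level ranged from 3.01 to 5.80 FPKM and from 3.77 to 10.5 FPKM. Of 8 endothelial markers 1 was higher (Pecam1, 0.37) and 1 lower (Kdr, -0.23), and their summed level of 387 to 492 FPKM and 353 to 573 FPKM overlapped widely. Of 8 fibroblast markers 4 were higher, among them Col1a1, and their summed level ranged from 15.5 to 971 FPKM and from 675 to 2538 FPKM. Col1a1 was at or below 0 in 3 controls, so no fold is given for it either. Of 10 cardiomyocyte markers 5 were lower, with Tnni3 at -0.63, and 1 was higher, namely Nppa, an atrial natriuretic peptide gene that rises in the stressed ventricle and was at or below 0 in 7 controls. The summed level of the cardiomyocyte markers, which define the labelled tissue, was 49560 to 59231 FPKM in the control group and 38808 to 53336 FPKM in the hypertensive-LVH group. With samples 4 to 6 left out, 0 B cell, 1 T cell, 1 endothelial and 1 fibroblast marker were called higher, while 8.36% of all genes were. In that fit 1 B cell, 1 endothelial and 3 cardiomyocyte markers were called lower. The part of these cells in the levels of the members was likewise not tested.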

How the data were processed

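Left ventricle RNA of 24 mice was sequenced. The authors deposited FPKM values per gene symbol, 1 column per mouse, and the submitters' processing notes name HISAT, Bowtie2 and RSEM without their roles, and the genome build is not given in the sources used here. The deposited values are adjusted FPKM, since negative values and ties divide the samples into 4 sets, a step the study's methods do not name. Some samples of the study were not analysed here. Groups follow the sample labels.

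Negative values were set to 0, log2(FPKM + 1) was taken, and genes with a mean of at least 0.1 FPKM (14026) were tested with limma 3.58.1 in R 4.3.3. The intensity trend was used, and adjustment was by Benjamini-Hochberg. The design had been written for plain FPKM, and its test was kept. Printed levels are FPKM as deposited. Exact permutations within sets used Python 3.11.15, numpy 2.4.6, pandas 2.3.3 and scipy 1.17.1, and figures matplotlib 3.10.9. The set adjustment was undone where all differences within a set were whole steps of 0.01 FPKM, to within 0.0005 steps, and a single solution existed. Both procedures were tested on simulated data. Positions are from GENCODE vM21 and promoters from RefSeq.

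The members and gene lists were chosen with earlier results of these data known. Named are all members, all other class II, promoter factor and interferon-γ path genes, in each other list the called genes with the largest increase and decrease or against the list's median, and the 5 genes most like the members, except that 2 genes under this rule are not reported here. Cd83, Ms4a1, and the list genes at or below 0 were named after their values were seen. Alternatives were a pseudocount of 0.1, other filters, quantile and median-ratio scaling, a Wilcoxon rank-sum test, a fit without the intensity trend, a replicate block, the set as a term, and leaving out each mouse or set. The tests within sets on FPKM as deposited, before the adjustment and without samples 4 to 6, and the estimates within each set, were chosen after seeing the data.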

Additional observations from a re-analysis of the deposited data

Results flagged for a closer look

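The ANG II effect differed between the 4 sets of samples for 3 of the 7 members by the group by set interaction in limma: H2-Eb1 (adjusted p = 0.0197), H2-Ab1 (adjusted p = 0.0384) and H2-DMb1 (adjusted p = 0.0398). H2-Eb1 had log2 fold changes of 0.32, 1.60, 0.03 and -0.25 in the successive sets, H2-Ab1 of 0.51, 1.70, 0.15 and -0.32, and H2-DMb1 of 0.31, 1.64, 0.09 and -0.19. The call was lost with median-ratio scaling for H2-Ab1 and H2-DMb1 and with quantile normalization for H2-DMb1. The part of the set adjustment in this was not tested. In samples 7 to 9 the differences before it and as deposited were 13.2 and 2.55 FPKM for H2-Eb1, 24.1 and 13.0 FPKM for H2-Ab1, and 1.98 and 1.05 FPKM for H2-DMb1. In samples 10 to 12 they were -2.68 and -8.43 FPKM for H2-Eb1, -10.3 and -15.1 FPKM for H2-Ab1, and -0.507 and -0.757 FPKM for H2-DMb1.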

How the results depend on the processing

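All 7 members had a positive log2 fold change over all samples under every alternative that kept at least 3 sets. The count of 1 member called became 0 with quantile normalization, the set as a term, or without samples 1 to 3, 4 to 6 or 7 to 9, and was 0 within samples 1 to 3, 7 to 9 and 10 to 12. It became 7 without samples 10 to 12 and within samples 4 to 6, with 6 and 7 DEGs, where 15.8% and 26.5% of all genes were called higher and 5.29% and 16.6% were DEGs. H2-DMa lost its call at 0.31 with quantile normalization, 0.40 with the set as a term, 0.43, 0.21 and 0.39 without samples 1 to 3, 4 to 6 and 7 to 9, and 0.31 and 0.46 within samples 1 to 3 and 7 to 9. Without samples 10 to 12 the log2 fold changes of H2-Aa, H2-Ab1, H2-Eb1, H2-DMb1, Cd74 and Ciita were called at 0.75, 0.79, 0.65, 0.68, 0.77 and 0.33. Within samples 4 to 6 they were called at 1.63, 1.70, 1.60, 1.64, 1.52 and 0.70. Within samples 10 to 12 they reversed to -0.35, -0.32, -0.25, -0.19, -0.36 and -0.047, and H2-DMa to -0.15. The cause was not tested.

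Leaving out 1 mouse at a time gave log2 fold changes of 0.39 to 0.57 for H2-Aa, 0.42 to 0.59 for H2-Ab1, 0.33 to 0.48 for H2-Eb1, 0.33 to 0.48 for H2-DMa, 0.37 to 0.55 for H2-DMb1, 0.39 to 0.56 for Cd74 and 0.17 to 0.27 for Ciita, with 0 to 6 members called and 0 to 4 DEGs. The call of H2-DMa was lost in 12 of 24 such fits, those without ANG II samples 1, 2, 5, 6, 7, 8 or 11 or controls 1, 4, 5, 6 or 8, with an adjusted p of at most 0.0756. Without ANG II sample 9 or 12, 6 members were called (23.1% and 21.1% of all genes), and without control sample 3, 3 were (19.5%).

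Whether the replicate numbers pair the mice was not settled. Correlations of same-numbered samples around the group means ran from -0.557 to -0.00109, but these include the set adjustment and cannot decide it. Around the means of each group and set they ran from -0.424 to 0.268. With the replicate block the log2 fold change of H2-DMa was 0.40 with an adjusted p of 0.105, and 0 members were called.

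The interaction was not called for H2-Ab1 with median-ratio scaling (0.0747), nor for H2-DMb1 with quantile normalization (0.124) or median-ratio scaling (0.0736). In the exact permutation test within sets, p crossed 0.05 before the adjustment for H2-Aa (0.0419), H2-Eb1 (0.0105), H2-DMb1 (0.0114) and Cd74 (0.0250), and for H2-DMb1 on FPKM as deposited (0.0358). Without samples 4 to 6 it rose to 0.590 for H2-Ab1, 0.251 for H2-DMa and 0.403 for Ciita.

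Genes near 0 reversed. Without samples 4 to 6, H2-Ob was -0.082, Rfx5 -0.17 and Socs1 -0.14. Quantile normalization gave -0.0077 for H2-Ob, -0.10 for Rfx5 and -0.061 for Nfyb. Median-ratio scaling gave -0.021 for Rfx5, -0.013 for Nfyb and -0.014 for Jak1. Without samples 10 to 12, Rfx5 was -0.0099, Nfyb -0.032 and Rfxap 0.0042, and without samples 7 to 9 Rfxap was 0.020. Leaving out 1 mouse, Rfx5 ranged from -0.024 to 0.050 and Rfxap from -0.031 to 0.0081. The depth is unknown, so the counting error behind the low levels of Ciita, H2-Oa and H2-Ob cannot be given.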

Other observations

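Of the 20 genes most like H2-Aa, H2-Ab1, H2-Eb1 and Cd74 once the mean of each group in each set was removed, 10 had symbols starting with Rps or Rpl. This count was made after the list had been seen. The 75 genes tested whose symbols are those of ribosomal proteins had a median log2 difference between the groups of 0.07 over all samples, and of -0.08, 0.18, 0.25 and -0.09 in samples 1 to 3, 4 to 6, 7 to 9 and 10 to 12. Their mean z-score had r = 0.86 over 24 samples with that of the class II genes after the same removal, a description of points that share libraries and the set adjustment.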
